A study of Homo sapiens with 6 samples.

Results

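Cullin and F-box ubiquitin ligase genes were examined in RNA-seq of EJ, a human cell line long established from a bladder cancer. The members are the genes whose symbol begins with FBXO, FBXL, FBXW or CUL and a digit, plus SKP1, SKP2, BTRC, RBX1 and CCNF; FBXO5 was left out by the same rule. They number 71 of the 15953 genes measured: 32 FBXO, 17 FBXL, 9 FBXW and 8 cullin genes and the 5 genes named singly. The rule reads gene symbols only. The 6 libraries fall into 2 groups of 3: shNC, stable EJ cells that carry a lentiviral control hairpin, and shSTIL, stable EJ cells that carry a lentiviral hairpin against STIL, a protein needed to build new centrioles. Column headings of the deposited tables name the groups siNC and siSTIL, whereas the sample labels name them by hairpin, and the labels were followed. The number and sequence of the hairpins are not given in the sources used here. The labels do not say whether the replicates are separate cultures, so the P-values measure only the spread between these libraries.

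Cullin-RING ligases attach ubiquitin to proteins and are the largest family of ubiquitin ligases in human cells. A cullin is the scaffold: one end holds a RING protein, RBX1 or its relative RBX2, which brings in the ubiquitin-loaded conjugating enzyme, and the other end holds an adaptor and a substrate receptor. In the SCF ligase the scaffold is CUL1, the adaptor is SKP1, and the receptors are the F-box proteins, sorted by their substrate-binding parts into FBXW (WD40 repeats), FBXL (leucine-rich repeats) and FBXO (other parts). SCF ligases drive cell-cycle transitions and also police the centriole: beta-TrCP marks PLK4, the kinase that recruits STIL, cyclin F marks the centriole protein CP110, and FBXW5 limits the centriole protein SAS-6.

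STIL, the targeted gene, had a log2 CPM (read counts scaled to library size, on the log2 scale) of 5.98, 6.10 and 6.01 in shNC and of 4.05, 4.06 and 4.01 in shSTIL. Every library therefore stood on the side that its label gives. Depth, as reads recovered from the log2 CPM, was 16214772 to 16901634 per library, and replicate libraries differed by 1.69 to 3.49 times the sampling noise (chi-square per degree of freedom). Of 17 urothelial and epithelial marker genes in the tables, 12 had a mean log2 CPM under 1, the uroplakins UPK1A, UPK1B, UPK2 and UPK3B, KRT5, KRT20, GATA3 and CDH1 among them, whereas the keratins KRT7, KRT8 and KRT18 and the mesenchymal gene VIM were high. Of 8 marker genes of other cell types in the tables, 6 had a mean log2 CPM under 1, and CD68 stood at 3.63 and ACTA2 at 2.28.

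The members moved in both directions and mostly by little. At an adjusted p under 0.01 (limma with a mean-variance trend, Benjamini-Hochberg over all genes), 38 of the 71 members differed, which is 53.5% beside 47.1% of all genes. They split into 22 higher in shSTIL (31.0% of the members, beside 23.5% of all genes) and 16 lower (22.5%, beside 23.6%). With each library centred on its median, the split was 28 higher and 13 lower. That centring moved all genes upward too. The share of calls that were higher went from 57.9% to 68.3% for members and from 49.9% to 55.5% for all genes. For 49 members the shNC and shSTIL values did not overlap (69.0%, beside 60.3% of all genes), 31 of them higher and 18 lower. Where the mean log2 CPM was 1 or more, the order of the shares was the other way: 57.1% of 63 members were called beside 61.9% of 11319 genes. The median log2 fold change was 0.13 over the members and 0.01 over all genes, and the median absolute log2 fold change was 0.29 and 0.30. The shares of called members thus lay near those of all genes, and what follows turns on which members moved and how far.

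**Figure D1:**
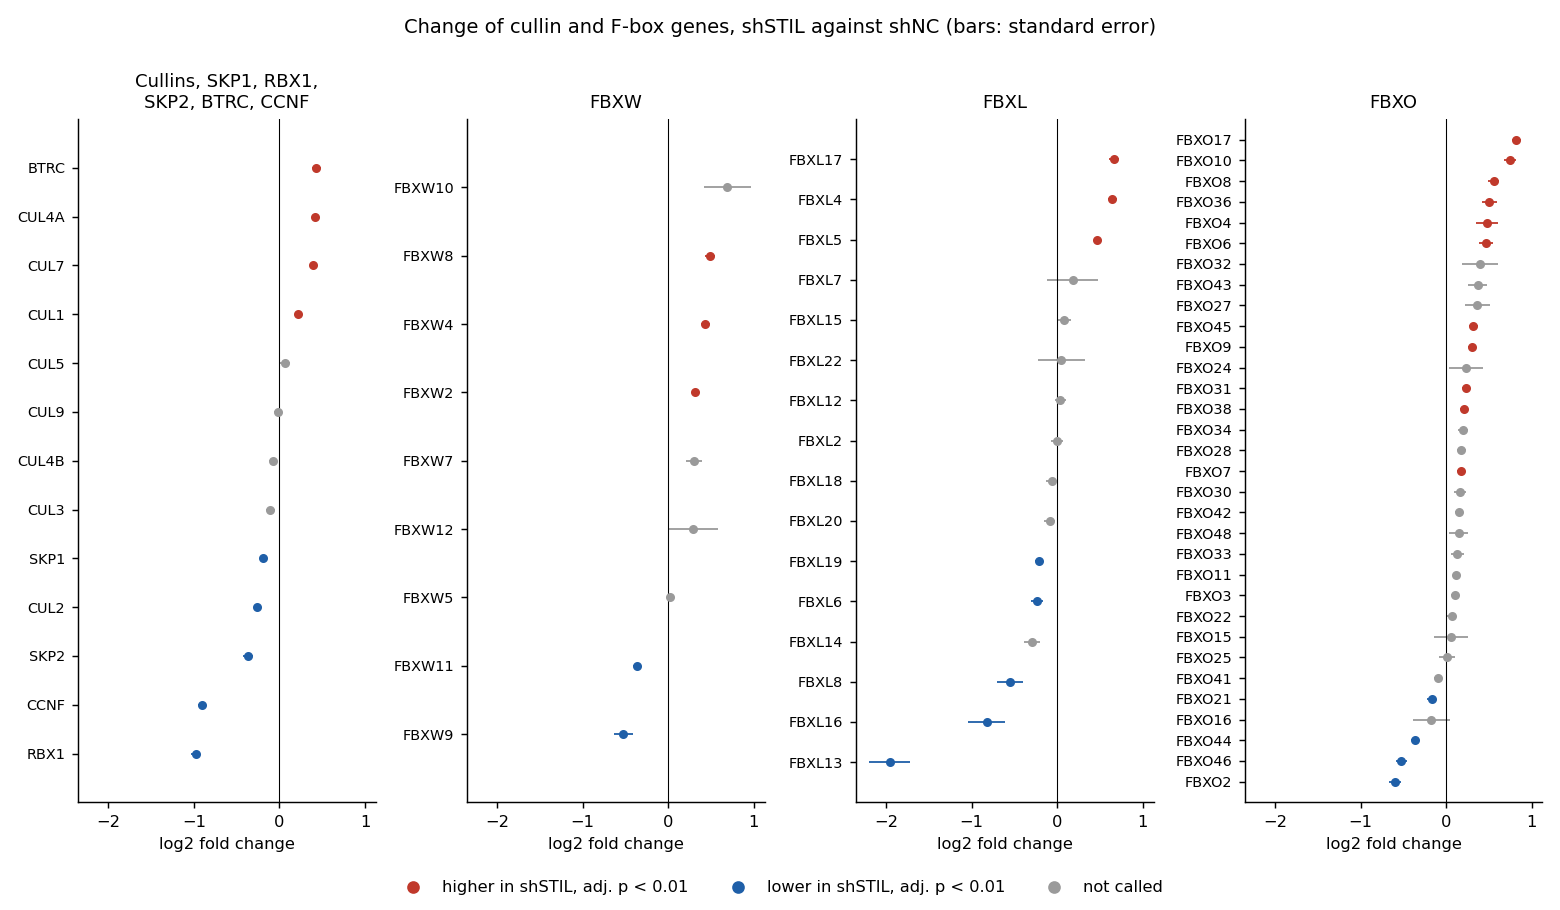
Log2 fold change of 70 members (x axis, shSTIL against shNC) with its standard error, by family, sorted by value; red and blue mark members called at an adjusted p under 0.01. Called members lie on both sides of 0 in every family, and FBXL13, RBX1, CCNF and FBXL16 lie furthest to the left.

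RBX1, the RING subunit shared by most cullin ligases, showed the largest fall among the core subunits. RBX1 stood at 5.42, 5.35 and 5.38 log2 CPM in shNC and at 4.34, 4.49 and 4.38 in shSTIL, so the groups lay far apart. The log2 fold change was -0.98 (SE 0.06, limma adjusted p = 8.0e-09), which leaves 50.7% of the control level. The value stayed between -1.02 and -0.95 with each library left out in turn. RNF7, which encodes RBX2, the RING subunit that serves CUL5, stood at 5.05, 4.90 and 4.98 in shNC and at 4.96, 5.19 and 5.11 in shSTIL. These groups overlapped, and the log2 fold change of 0.11 did not pass the threshold (SE 0.07, limma adjusted p = 0.16).

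SKP1, the adaptor that joins F-box proteins to CUL1, had the most reads of any member. SKP1 stood at 7.79, 7.94 and 7.90 in shNC and at 7.65, 7.75 and 7.65 in shSTIL. The groups did not overlap but lay close, with a log2 fold change of -0.19 (SE 0.04, limma adjusted p = 0.0014). That call was kept in 1 of the 6 fits that left out a library, the one without shNC replicate 1. In the other 5 fits the adjusted p was up to 0.0643. It was also lost in limma without the trend (adjusted p = 0.0369), after quantile normalization (adjusted p = 0.0140) and against a minimum fold of 1.2.

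The 8 cullins did not move as one: CUL1, CUL4A and CUL7 rose, CUL2 fell, and CUL3, CUL4B, CUL5 and CUL9 did not pass the test. CUL1, the SCF scaffold, stood at 6.65, 6.68 and 6.70 in shNC and at 6.93, 6.83 and 6.91 in shSTIL. All 3 shSTIL libraries were above all shNC libraries, by a log2 fold change of 0.21 (SE 0.04, limma adjusted p = 2.0e-04). Without shSTIL replicate 3 the log2 fold change was 0.20 and the adjusted p was 0.0121, above the threshold. The CUL1 call was also lost against a minimum fold of 1.2.

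CUL2, the scaffold that works with the von Hippel-Lindau receptor, stood at 6.56, 6.58 and 6.55 in shNC and at 6.33, 6.30 and 6.29 in shSTIL. It was the only cullin called lower, in this fit and with edgeR, by a log2 fold change of -0.26 (SE 0.03, limma adjusted p = 2.5e-05). Against a minimum fold of 1.2 the CUL2 call was lost. CUL3, the scaffold for BTB-domain receptors, stood at 6.53, 6.73 and 6.64 in shNC and at 6.58, 6.54 and 6.47 in shSTIL. The groups overlapped, and the 95% interval of the log2 fold change ran from -0.21 to 0.00.

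CUL4A and CUL4B are close paralogs that share the adaptor DDB1, and their transcripts behaved unequally. CUL4A stood at 6.64, 6.67 and 6.59 in shNC and at 7.07, 7.05 and 7.04 in shSTIL, a log2 fold change of 0.42 (SE 0.03, limma adjusted p = 2.1e-07). CUL4B stood at 6.34, 6.44 and 6.43 in shNC and at 6.28, 6.39 and 6.31 in shSTIL, with overlapping groups and a 95% interval from -0.17 to 0.02. On the linear scale CUL4A made up 54.0% ± 1.2 (SD, n = 3) of the CPM of the pair in shNC and 62.4% ± 1.1 in shSTIL. These CPM are not scaled for transcript length. Exons of CUL4A overlap those of PCID2, on the other strand, over 6.19% of their length.

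CUL5, the scaffold for SOCS-box receptors, stood at 5.32, 5.56 and 5.50 in shNC and at 5.53, 5.50 and 5.55 in shSTIL, with a 95% interval from -0.06 to 0.19. CUL9, a large atypical cullin, stood at 6.09, 5.94 and 5.97 in shNC and at 6.003, 5.978 and 5.964 in shSTIL, with a 95% interval from -0.11 to 0.08. For neither did the groups separate. CUL7, whose best-known F-box partner is FBXW8, stood at 6.74 in every shNC library and at 7.11, 7.09 and 7.20 in shSTIL. CUL7 rose by 0.39 on the log2 scale (SE 0.04, limma adjusted p = 6.9e-07), and FBXW8 rose by 0.49 (SE 0.06, limma adjusted p = 5.9e-06), with separate groups for both.

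**Figure D2:**
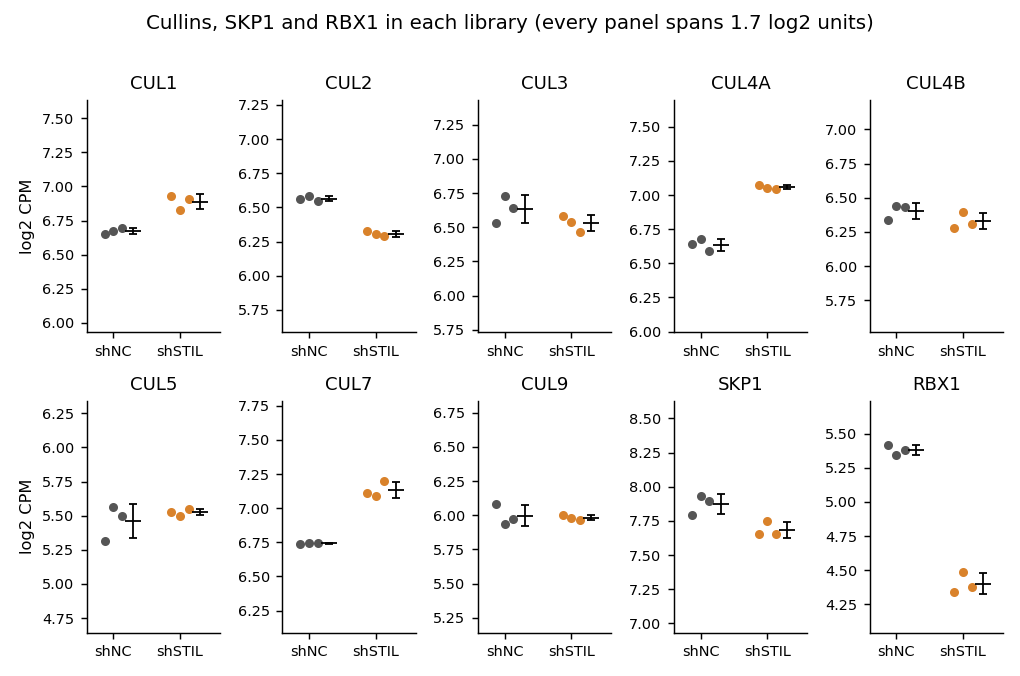
Log2 CPM (y axis) of the 8 cullins, SKP1 and RBX1 in each of the 3 shNC and 3 shSTIL libraries; the dash with bars is the mean and SD of the group. RBX1 drops by 0.98, CUL1, CUL4A and CUL7 step up, and CUL3, CUL4B, CUL5 and CUL9 overlap.

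Levels of different genes were compared per kilobase of the longest coding transcript in GENCODE 29. On that scale CUL1 led the cullins in shNC at 33.4 ± 0.5 CPM per kb (SD, n = 3), followed by CUL2 at 22.0 ± 0.3, CUL7 at 19.5 ± 0.04, CUL4A at 17.5 ± 0.5, CUL4B at 17.3 ± 0.7, CUL3 at 14.8 ± 1.0, CUL9 at 8.22 ± 0.45 and CUL5 at 6.94 ± 0.60. CUL4A and CUL4B did not differ beyond their spread in shNC. In shSTIL, CUL7 at 25.5 ± 1.0 and CUL4A at 23.5 ± 0.2 stood above CUL2 at 18.4 ± 0.3. RBX1 went from 35.1 ± 0.9, slightly above CUL1, to 17.8 ± 1.0, below CUL1 at 38.7 ± 1.4. Transcripts shorter than the longest one would raise a gene's value on this scale, which among the core subunits includes SKP1, with a longest transcript of 9474 bases and 24.8 ± 1.2 CPM per kb in shNC. Among all members FBXW5, the receptor for SAS-6, was highest in shNC at 60.6 ± 3.7 CPM per kb, and in shSTIL it stood at 61.5 ± 1.7.

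**Figure D3:**
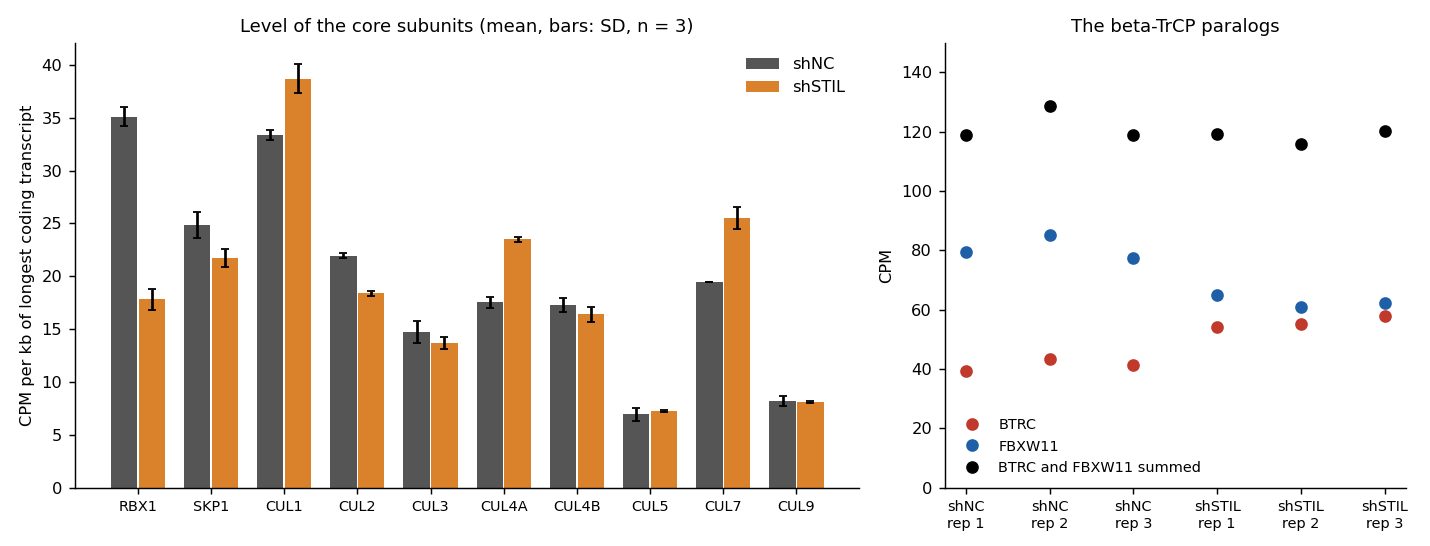
Left, CPM per kb (y axis) of the core subunits in shNC and shSTIL, as means with SD bars (n = 3); right, CPM (y axis) of BTRC, of FBXW11 and of their sum in each library. RBX1 falls from 35.1 to 17.8 CPM per kb, and BTRC and FBXW11 approach each other while their sum stays between 116 and 129 CPM. The CPM on the right are not scaled for transcript length.

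Cyclin F and SKP2, receptors that act in the cell cycle, both fell. Cyclin F, encoded by CCNF, is the F-box protein after which the motif was named and peaks late in the cycle. CCNF stood at 6.03, 5.99 and 5.95 in shNC and at 5.04, 5.12 and 5.08 in shSTIL, a log2 fold change of -0.91 (SE 0.05, limma adjusted p = 1.8e-09) that leaves 53.2% of the control level. SKP2, the receptor that marks the cyclin-dependent kinase inhibitor p27 for destruction, stood at 4.89, 4.77 and 4.88 in shNC and at 4.52, 4.46 and 4.46 in shSTIL. Its groups did not overlap, and the log2 fold change was -0.37 (SE 0.06, limma adjusted p = 1.2e-04). The SKP2 call was lost against a minimum fold of 1.2 (limma adjusted p = 0.163). CKS1B, the cofactor with which SKP2 binds p27, stood at 6.98, 6.98 and 7.10 in shNC and at 7.04, 7.19 and 7.13 in shSTIL, which did not pass the test (log2 fold change 0.09, SE 0.05, limma adjusted p = 0.094). Beside these falls, 40 of 41 S phase genes were called lower, with a median log2 fold change of -0.97, and of 52 genes of G2 and M phase 37 were called lower and 3 higher, with a median of -0.34. Whether a changed share of cells in each phase plays a part in the values of CCNF and SKP2 was not tested, and in bulk samples fewer cells of a kind and less RNA per cell cannot be told apart.

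The 250 bases upstream of the start of CCNF, SKP2 and RBX1 are shown. RBX1 had the largest fall among the core subunits, and CCNF and SKP2 are the cell-cycle receptors described above. The windows of CUL2 and SKP1, core subunits also called lower, are not shown. The sequences are those of RefSeq on GRCh38.p14, all on the plus strand, and end just before the RefSeq start; GENCODE 29 places an earlier start inside each of the 3 windows. Capitals mark CCAAT (the word bound by NF-Y; ATTGG on the other strand) and TTTGAA (the CHR word; TTCAAA on the other strand). E2F words (TTTCCCGC, TTTGGCGC, TTTCGCGC and TTTGCCGC, both strands) would also be in capitals.
CCNF, chr16:2429197-2429446: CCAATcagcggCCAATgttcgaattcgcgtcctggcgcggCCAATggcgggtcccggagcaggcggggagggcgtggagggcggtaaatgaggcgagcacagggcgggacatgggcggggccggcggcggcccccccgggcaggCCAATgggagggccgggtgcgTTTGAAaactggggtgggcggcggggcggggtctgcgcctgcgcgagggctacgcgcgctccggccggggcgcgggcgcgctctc
SKP2, chr5:36151861-36152110: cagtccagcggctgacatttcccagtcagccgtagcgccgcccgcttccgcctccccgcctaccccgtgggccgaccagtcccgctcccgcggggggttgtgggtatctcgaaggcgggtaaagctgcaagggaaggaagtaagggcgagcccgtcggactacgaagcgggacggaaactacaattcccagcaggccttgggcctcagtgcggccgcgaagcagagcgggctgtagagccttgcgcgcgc
RBX1, chr22:40951128-40951377: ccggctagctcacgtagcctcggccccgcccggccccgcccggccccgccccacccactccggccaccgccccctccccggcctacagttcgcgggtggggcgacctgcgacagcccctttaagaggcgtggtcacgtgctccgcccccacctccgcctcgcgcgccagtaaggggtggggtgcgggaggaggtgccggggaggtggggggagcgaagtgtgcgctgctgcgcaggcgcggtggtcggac
The window of CCNF holds CCAAT 4 times, with first letters 250, 239, 210 and 106 bases before the start, and TTTGAA 85 bases before it. None of the words searched is in the windows of SKP2 and RBX1. Of the 71 members, 55 had an upstream sequence in the RefSeq table, and BTRC and CUL7 were not among them. CCAAT was in 15 of these 55 and in 32.0% of all 35116 windows of the RefSeq table. Those windows were not limited to the genes measured, nor to a single window per gene as for the members. The shares are therefore not of like units. TTTGAA was in CCNF and CUL4B, beside 13.3% of all windows, and an E2F word was in FBXO44 and FBXO9, beside 2.79% of all windows. A match is a description of letters and not a bound site.

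BTRC and FBXW11 encode the paralogs of beta-TrCP, which read the same phosphorylated degron in beta-catenin, IkB and PLK4, and they moved in opposite directions. BTRC stood at 5.30, 5.44 and 5.37 in shNC and at 5.76, 5.78 and 5.86 in shSTIL. It rose by 0.43 on the log2 scale (SE 0.05, limma adjusted p = 5.4e-06). FBXW11 stood at 6.31, 6.41 and 6.28 in shNC and at 6.02, 5.93 and 5.96 in shSTIL, a log2 fold change of -0.36 (SE 0.04, limma adjusted p = 9.8e-06). Neither pair of groups overlapped. Against a minimum fold of 1.2 neither call was kept (limma adjusted p = 0.0111 for BTRC and 0.0720 for FBXW11). The share of BTRC in the CPM of the pair went from 33.9% ± 0.8 (SD, n = 3) in shNC to 47.1% ± 1.4 in shSTIL. Their summed CPM was 122 ± 5.6 in shNC and 118 ± 2.2 in shSTIL, with overlapping libraries. Share and sum are of CPM not scaled for length, and the longest coding transcripts have 6134 (BTRC) and 4539 bases (FBXW11). They therefore do not show whether the number of transcripts of the pair stayed the same. Per kb, BTRC went from 6.74 ± 0.34 in shNC to 9.10 ± 0.32 in shSTIL, and FBXW11 from 17.8 ± 0.9 to 13.8 ± 0.4. Both genes held whole reads in all 6 libraries, so no read of theirs had been divided between genes.

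FBXW7, the receptor for phosphorylated cyclin E, MYC and NOTCH, stood at 3.34, 3.56 and 3.60 in shNC and at 3.77, 3.80 and 3.83 in shSTIL. The groups did not overlap, but the log2 fold change of 0.30 missed the threshold (SE 0.09, limma adjusted p = 0.012). It passed with edgeR on recovered reads (adjusted p = 0.0035), and over all alternatives that did not leave out a library or require a minimum fold its adjusted p lay between 0.00347 and 0.0342. Of the other FBXW genes, FBXW2 and FBXW4 were called higher by 0.32 and 0.43. FBXW10 and FBXW12 had at most 5.37 estimated reads in any library.

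FBXO2, FBXO6, FBXO17, FBXO27 and FBXO44 share a domain that in FBXO2 binds high-mannose sugars, in the disposal of misfolded glycoproteins from the endoplasmic reticulum. They were grouped here after their values were seen. They did not share a direction. FBXO17 showed the largest rise of any called member: it stood at 5.56, 5.34 and 5.51 in shNC and at 6.33, 6.27 and 6.28 in shSTIL. Its groups were well apart, with a log2 fold change of 0.82 (SE 0.05, limma adjusted p = 2.6e-08), or 177% of the control level. FBXO2 fell, from 4.62, 4.45 and 4.47 in shNC to 3.86, 3.99 and 3.90 in shSTIL, with a log2 fold change of -0.60 (SE 0.07, limma adjusted p = 9.9e-06). FBXO44 was called lower by 0.37 on the log2 scale, FBXO6 was called higher by 0.46, and FBXO27 had overlapping groups and a log2 fold change of 0.36 that missed the threshold (limma adjusted p = 0.050).

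These genes are neighbours in 2 places of GRCh38 (GENCODE 29). On chromosome 1, FBXO2 lies from 11637018 to 11655785 on the minus strand, FBXO44 from 11654375 to 11663327 and FBXO6 from 11664124 to 11674354, both on the plus strand. So FBXO2 and FBXO44 start head to head and both fell, while FBXO6, next to FBXO44, rose. Exons of FBXO44 cover 13.3% of those of FBXO2, and exons of FBXO2 cover 5.87% of those of FBXO44. The sources used here do not say that reads were counted by strand, so reads of the overlap cannot be told apart. On chromosome 19, FBXO17 lies from 38941401 to 38975910 and FBXO27 from 38990714 to 39032785, both on the minus strand.

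Among the FBXL genes, 4 were called higher and 5 lower. FBXL17, which checks the quality of BTB-domain dimers, stood at 4.24, 4.30 and 4.28 in shNC and at 4.98, 4.93 and 4.91 in shSTIL, a log2 fold change of 0.66 (SE 0.06, limma adjusted p = 3.3e-07). FBXL4, a mitochondrial protein that restrains mitophagy, stood at 4.936, 5.003 and 4.869 in shNC and at 5.62, 5.60 and 5.52 in shSTIL, a log2 fold change of 0.64 (SE 0.05, limma adjusted p = 2.1e-07). In both genes every shSTIL library was above every shNC library, and the call held with any library left out. FBXL5, the iron-sensing receptor for IRP2, was also called higher, by 0.47.

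The FBXL genes called lower rested on few reads or moved little. FBXL13 had the largest fall of all members, from 1.32, 2.14 and 2.03 log2 CPM in shNC to 0.08, -0.19 and -0.27 in shSTIL. It rests on 38 to 70 reads per shNC library and 12 to 16 per shSTIL library, and its log2 fold change was -1.96 (SE 0.24, limma adjusted p = 1.0e-05), the only one past 1 in size among called members. FBXL16 rests on 17 to 22 reads against 10 to 11, and its call was kept in 2 of the 6 fits that left out a library and lost with edgeR (adjusted p = 0.0103). FBXL8 stood at 2.35, 2.42 and 2.14 in shNC and at 1.74, 1.90 and 1.62 in shSTIL. The groups were separate, with a log2 fold change of -0.55 (SE 0.15, limma adjusted p = 0.0069), but leaving out any 1 of the 6 libraries ended the call, as did median centring (adjusted p = 0.0106), DESeq2 (adjusted p = 0.0217) and a minimum fold of 1.2. FBXL6 and FBXL19 were called lower by 0.24 and 0.21 on the log2 scale.

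Other F-box genes that passed the size limit of 0.5 on the log2 scale were FBXO10, FBXO8 and FBXO36, which rose, and FBXO46 and FBXW9, which fell. FBXO10, described as a receptor for the survival protein BCL2, stood at 3.50, 3.45 and 3.53 in shNC and at 4.23, 4.26 and 4.24 in shSTIL, a log2 fold change of 0.75 (SE 0.07, limma adjusted p = 1.2e-06). FBXO8, which carries a Sec7 domain, stood at 3.96, 3.95 and 3.89 in shNC and at 4.45, 4.49 and 4.53 in shSTIL, a log2 fold change of 0.56 (SE 0.07, limma adjusted p = 7.3e-06). Exons of CEP44, on the other strand, cover 14.9% of the exons of FBXO8. FBXO36 stood at 3.23, 3.32 and 3.36 in shNC and at 3.77, 3.82 and 3.85 in shSTIL, a log2 fold change of 0.51 (SE 0.08, limma adjusted p = 1.6e-04). In each of these genes the groups did not overlap. The FBXO36 call was lost against a minimum fold of 1.2 (limma adjusted p = 0.0268).

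FBXO46 stood at 4.90, 4.78 and 4.81 in shNC and at 4.34, 4.32 and 4.26 in shSTIL, a log2 fold change of -0.52 (SE 0.06, limma adjusted p = 6.6e-06). FBXW9 stood at 3.91, 3.92 and 3.74 in shNC and at 3.16, 3.55 and 3.28 in shSTIL, where replicate 2 lay nearest to the controls. Its log2 fold change was -0.53 (SE 0.11, limma adjusted p = 8.4e-04), and the call was kept only in the fit without shSTIL replicate 2, where the adjusted p was 0.0043; in the other 5 fits it was at most 0.0425. The call was also lost in limma without the trend (adjusted p = 0.0128) and against a minimum fold of 1.2.

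**Figure D4:**
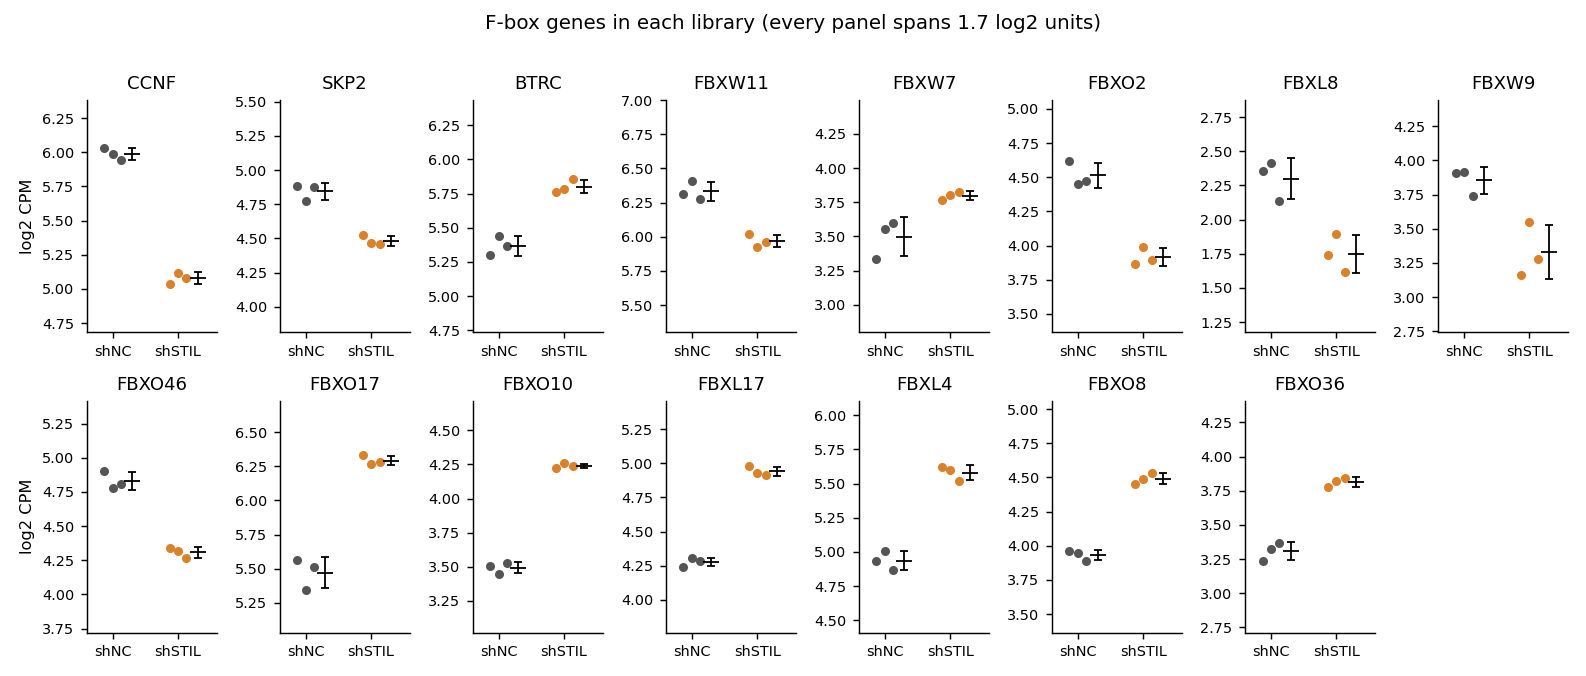
Log2 CPM (y axis) of 15 F-box genes in each of the 3 shNC and 3 shSTIL libraries, with the mean and SD of each group as a dash with bars. CCNF shows the widest gap downward (0.91) and FBXO17 the widest gap upward (0.82). No panel has overlapping groups. All genes shown but FBXW7 were called, and no called member had overlapping groups. Of all genes, 60.3% had groups that did not overlap.

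The remaining called members moved by less than 0.5. Higher were FBXO4, which has been tied to cyclin D1, FBXO7, FBXO9, FBXO31, FBXO38 and FBXO45, and lower was FBXO21. Their log2 fold changes lay between -0.17 and 0.48. Of the 38 calls, 24 held in all 6 fits that left out a library, 15 of them higher and 9 lower, and 3 held in none: FBXL6, FBXL8 and FBXO21. Over all genes, calls that held in all 6 fits were not counted. Values of the 33 members that were not called lay between -0.30 (FBXL14) and 0.69 (FBXW10), and for 11 of these 33 the groups did not overlap. Of all genes 47.1% were called and 60.3% had groups that did not overlap. Uncalled genes without overlap are therefore not particular to the members. Exons of MSH6, on the other strand, cover 38.5% of the exons of FBXO11, which was not called. RSEM had assigned fractions of reads to 13 members in at least 1 library, SKP2 in all 6 and CUL4A in 3 among them, so a part of their reads is shared with other sequences. The exact two-sided permutation test gives p = 0.1, the smallest that 3 libraries against 3 allow, for every member whose groups do not overlap.

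Other experiments of the study used siRNAs against STIL. Their seed matches were looked for in the 3′ UTR of the longest coding transcript of 15505 genes in GENCODE 29. Other transcripts of a gene were not searched, and members and all genes were not matched for the length of the 3′ UTR. The word for siSTIL#2, TGGATTA, was in 11 of 71 members and in 10.6% of all genes scanned. Of the 11, 3 were called lower (CUL2, FBXW11 and FBXO44), 4 were called higher (CUL4A, FBXL4, FBXO9 and FBXW2) and 4 were not called. The word for siSTIL#3, TTCCACA, was in 13 of 71 members and in 14.8% of all genes scanned. Of the 13, 2 were called lower (RBX1 and SKP1), 4 were called higher (FBXO36, FBXO38, FBXO45 and FBXW2) and 7 were not called. The word for siSTIL#1, TACATAT, was in 16 of 71 members and in 16.4% of all genes scanned. Of the 16, 1 was called lower, 6 were called higher and 9 were not called. Beside these counts, 22.5% of the 71 members were called lower and 31.0% higher, with or without a word. Over all genes it was 23.6% lower and 23.5% higher. Calls among all genes with a word were not counted. Whether a hairpin with one of these seeds was used is not known here, and its part in these values was not tested.

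Genes around the ligases were read from 6 lists of the same pathway. In either direction, 36.4 to 64.5% of the genes of a list were called. Beside this stand 47.1% of all genes and 61.9% of those with a mean log2 CPM of 1 or more. NEDD8, the small modifier that switches cullins on, has 11 listed genes of its conjugation in the tables, of which 2 were called higher and 2 lower, with a median log2 fold change of -0.04. The COP9 signalosome removes NEDD8, and CAND1 exchanges the receptors: of 13 such genes 1 was called higher and 7 lower, with a median of -0.27. COPS2, a signalosome subunit, stood at 6.84, 6.94 and 6.94 in shNC and at 6.38, 6.44 and 6.33 in shSTIL (log2 fold change -0.52, SE 0.04, limma adjusted p = 1.5e-07). Of 13 genes of ubiquitin transfer to cullins 5 were called higher and 3 lower, with a median of 0.10. The conjugating enzyme UBE2L3 was called lower by 0.74 and UBE2D4 was called higher by 0.56 on the log2 scale.

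Adaptors and receptors of the other cullins held rises above 1 on the log2 scale, which no member reached. Of 35 genes of CUL2 and CUL5 ligases, 15 were called higher and 4 lower, with a median log2 fold change of 0.14: SOCS7 rose by 1.11, SOCS3 by 0.69 and ZER1 by 0.62, and LRR1 fell by 0.64. Of 45 CUL3 receptors, 16 were called higher and 7 lower, with a median of 0.01: KCTD13 rose by 1.11 and KLHL42 by 0.86, and KLHL13 fell by 0.81 and KLHL26 by 0.76. Of 31 genes of CUL4 ligases, 10 were called higher and 10 lower, with a median of -0.00: DCAF10 rose by 1.44 and DET1 by 0.62, and DTL, the receptor for CDT1 in S phase, fell by 0.97 and RBBP4 by 0.60. All of these passed at an adjusted p under 0.01 with limma.

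**Figure D5:**
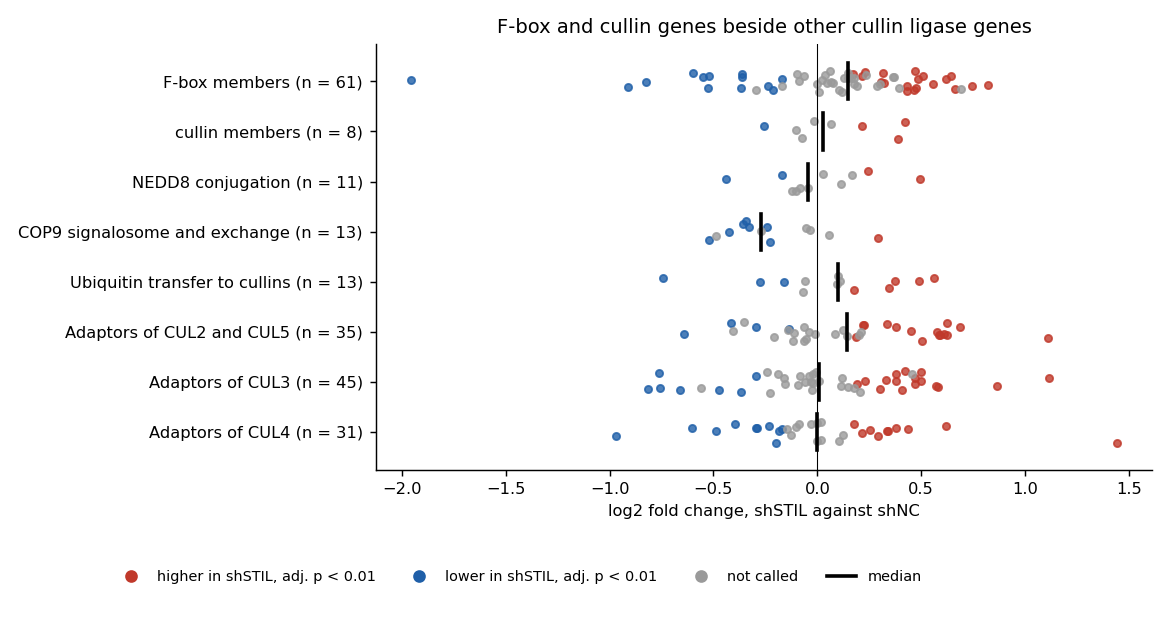
Log2 fold change (x axis, shSTIL against shNC) of each F-box and cullin member and of each gene of 6 other cullin ligase lists; 1 point is 1 gene, red and blue are called at an adjusted p under 0.01, and the black bar is the median of the list. The medians lie between -0.27 (COP9 signalosome and exchange) and 0.15 (F-box members).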

How the data were processed

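RNA-seq of 3 shNC and 3 shSTIL libraries of EJ cells was analysed. Reads were filtered with SOAPnuke, mapped with Bowtie2 and estimated per gene with RSEM by the authors; the submitters' processing notes name Bowtie2, RSEM, limma and the build hg38, without versions. Used here were the deposited log2 CPM of 15953 genes for all 6 libraries, which the authors made with edgeR, and estimated counts from RSEM, not normalized, for 4 libraries with 1 control among them. RSEM divides reads between similar transcripts, which makes paralogs uncertain. Adding a prior count understates changes of low genes.

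The groups were compared with limma 3.58.1 (lmFit, eBayes with a trend) in R 4.3.3, fitted to every gene's log2 CPM as deposited, with Benjamini-Hochberg adjustment and a threshold of 0.01. Reads recovered from the log2 CPM, whole within 0.005 reads for 87.1 to 87.4% of values, were rounded for edgeR 4.0.16 and DESeq2 1.42.0 as alternatives. The lowest and highest depths were 16214772 and 16901634 reads.

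Per-library values are given for the cullins, SKP1, RBX1, SKP2, CCNF, BTRC, FBXW11 and FBXW7. They are also given for members called with an absolute log2 fold change of at least 0.5 and a mean log2 CPM of at least 1. FBXL13, with a mean log2 CPM of 0.85, is given per library as the largest fall. Other members are named at the ends of ranges, or after their values were seen. The latter are FBXL5, FBXL6, FBXL16, FBXL19, FBXO6, FBXO11, FBXO27, FBXO44, FBXW2, FBXW4, FBXW8, FBXW12 and the smaller calls. RNF7 and CKS1B, which are not members, were also named after their values were seen. Other cullin ligase lists give at most 4 genes each, called, at least 0.5 in size, largest first. The members and the lists were chosen with earlier results of these data known. Coordinates are from GENCODE 29 (GRCh38), matched by symbol for all 71 members. The S phase and G2 and M phase lists, urothelial and epithelial markers, mesenchymal markers and markers of other cell types are given beside results only; of 7 mesenchymal markers measured, 1 was called higher and 2 lower. Values of 1 member are not reported here, though it enters the counts.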

Additional observations from a re-analysis of the deposited data

How the results depend on the processing

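The number of called members stayed within 1.5 times the 38 reported, between 31 and 48, when the trend was left out (31), after quantile normalization (37, 24 of them higher and 13 lower), after median centring (41), with a filter on low means (41), with a prior count of 0.5 (37), with edgeR (43) or DESeq2 (33) on recovered reads, and at an adjusted p under 0.05 (48). Of all genes tested, 36.7% were called without the trend, 65.8% with the filter, 56.3% at 0.05 and 46.0 to 49.1% in the rest of these settings. A minimum fold moved the number of members more. With limma's treat against 1.2-fold, 15 members passed, 10 higher and 5 lower, beside 20.8% of all genes. An absolute log2 fold change above 1 left 1 member, with 0 higher and 1 lower, beside 5.96% of all genes. Leaving out 1 library gave 27 to 30 calls, 18 to 20 higher and 9 to 12 lower, beside 30.7 to 35.3% of all genes. The number lower was 10 without shNC replicate 2 or 3 or shSTIL replicate 2, and 9 without shSTIL replicate 1 or 3. The same replicate numbers occur in both groups. With them as a replicate block 34 members were called, 21 higher and 13 lower, beside 43.2% of all genes. Same-numbered libraries did not deviate together (correlations of -0.12, -0.06 and -0.11 over 11319 genes). No pairing was seen, but a weak one could be missed with 3 libraries per group, and the labels name none. No called member among those given per library changed sign under any alternative run; of those not called, CUL9 (-0.02) was at 0.03 after median centring and without shNC replicate 1, and CUL5 (0.07) was at -0.0036 without shNC replicate 1. Members with a mean log2 CPM under 1 number 8, of which 2 were called, and rest on few reads.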
